A study of Drosophila melanogaster with 12 samples.

Results

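Alkaline phosphatases are enzymes that release phosphate from many organic molecules at high pH, and most of them are tethered to the outer face of the plasma membrane by a glycosylphosphatidylinositol (GPI) lipid anchor. In insects they are known mainly from transporting epithelia such as the midgut and the Malpighian tubules, the excretory organs of the fly, and *Alp4* is the family member best known from the tubules. The *Drosophila* genome carries a set of paralogous genes for these enzymes, and the 9 described here are *Alp1*, *Alp2*, *Alp4*, *Alp5*, *Alp6*, *Alp7*, *Alp8*, *Alp9* and *Alp10*. They were taken by gene symbol, and all 9 were found among the 24134 genes of the expression table. The family was picked because *Alp4* was higher in mutant fat bodies and *Alp7* lower in mutant whole larvae, so the differences between genotypes below describe the 9 genes and carry no p-value. Where the threshold set for all genes is named beside a member, it only places that member against the background.

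RNA-seq was run on L2 larvae that lack the nuclear receptor dERR and on heterozygous controls, to ask how the receptor shapes gene expression in the fat body, the main fat store of the larva, and in the animal as a whole. There were 3 samples each of control fat bodies (replicates 5, 6 and 7), mutant fat bodies (1, 2 and 4), control whole animals and mutant whole animals (1 to 3 each), and the records give 60 h at 25 °C on molasses agar with yeast for all of them, while the study's methods name a later age for the dissected larvae, so the age of the fat body samples is uncertain. Mutants carried 2 different mutant alleles, *dERR*1 over *dERR*2 (*dERR*1/2), and controls carried *dERR*1 over a *w1118* chromosome (*dERR*1/+), so all larvae carried the *dERR*1 allele. The mutation is in every cell of the animal. Mutants had fathers of the *dERR*2 stock and controls had *w1118* fathers, so every chromosome from the father came from a different stock. Mutants alone carry the chromosome 3 with *dERR*2, on which *Alp1*, *Alp4*, *Alp5*, *Alp9* and *Alp10* lie. *Alp2*, *Alp6*, *Alp7* and *Alp8* lie on chromosome 2, which also differed in stock. For all 9 members the stock of the father and the loss of *dERR* cannot be told apart. The study's methods call the fat body sets technical replicates, so the errors measure the spread between these samples, which may be technical.

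All values are the regularized log2 (rlog) values that the authors deposited, in which the 12 values of a gene are drawn toward their common mean. The depth of each library is unknown from these values. A gene with no reads in a sample sits near or below 0 on this scale, so a difference from such a group is no measure of fold change and is given only as a difference of log2 values. The transcript of *ERR* itself is still made in the mutants, at 8.25 to 8.40 in fat bodies against 8.29 to 9.24 in controls and at 8.01 to 8.28 in whole animals against 8.16 to 8.39, so it does not check the labels. The fat body marker *apolpp*, which encodes the main lipid carrier of the blood, was at 18.21 to 18.96 in fat bodies and at 15.55 to 16.52 in whole animals. *Apoltp* was at 14.57 to 15.23 and at 11.47 to 12.55. The storage protein genes *Lsp1alpha*, *Lsp1beta* and *Lsp1gamma* did not set fat bodies apart in this way. Their means were 6.09, 14.91 and 10.21 in control fat bodies and 8.63, 14.60 and 11.01 in control whole animals. In mutants they were 2.43, 10.27 and −0.25 in fat bodies and 4.88, 12.61 and −0.04 in whole animals. In whole animals every mutant was below every control for each of these storage protein genes, as for 13.5% of all genes tested. *Lsp1gamma* was at 10.24 to 11.82 in control whole animals and at 1.40 or less in mutant ones. *Alp7* and *Alp8*, described below, were lower in the same mutant samples. Whether the genotypes differed in stage within L2 was not tested. The late larval genes *Lsp2*, *Fbp1* and *Fbp2* were low in all samples, at 4.06 or less. The storage protein gene *Lsp1gamma* set control fat body 7 apart (15.26, against 7.60 and 7.77 in the other controls and −0.13 or less in the mutants), and without this sample the fat body difference of *Alp4* given below was 9.40.

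*Alp4* was near the bottom of the scale in control fat bodies and among the higher genes in mutant fat bodies. Its rlog values were 2.37, 3.07 and 2.62 in control fat bodies 5, 6 and 7 and 11.38, 12.42 and 12.56 in mutant fat bodies 1, 2 and 4. The mutants were all above the controls, as for 14.2% of all genes tested, and the lowest mutant lay far above the highest control. Mutants were higher by 9.43 (SE 0.29, n = 3 and 3), and the difference stayed between 9.21 and 9.80 when any 1 of the 12 samples was left out. In whole animals the values were 11.76, 11.76 and 11.55 in controls and 11.99, 11.53 and 11.56 in mutants, with overlapping groups and a mean of 11.69 in both (SE of the difference 0.29). Of the 8 members that passed the filter on low values, *Alp4* alone met the threshold used for all genes in fat bodies (limma's treat test against a log2 change of 1, adjusted p under 0.05), which 3.18% of the 10069 genes tested met in either direction and 1.76% met as higher. As the family was chosen on this contrast, nothing is read from that count. In bulk samples, fewer cells of a type and less RNA per cell cannot be told apart.

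**Figure D1:**
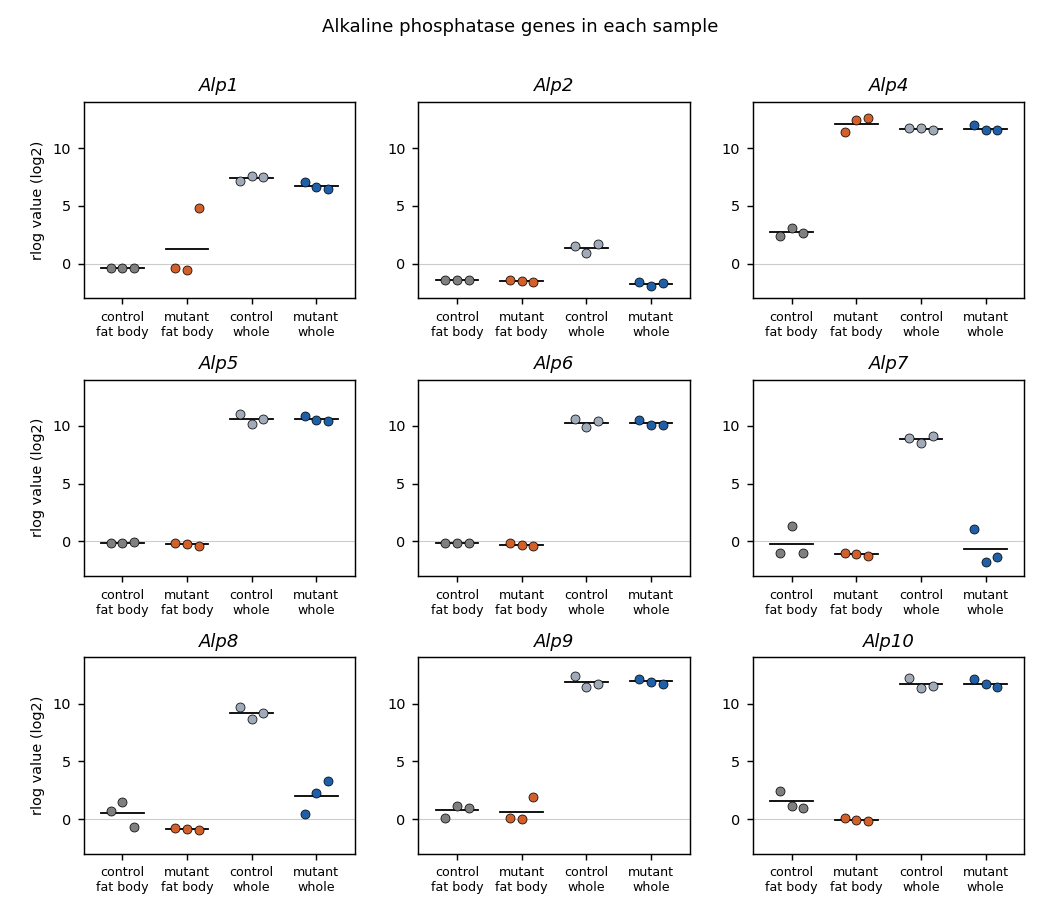
Deposited rlog value (log2, vertical axis) of each of the 9 alkaline phosphatase genes in the 12 samples, by group; points are samples and bars are means of 3. *Alp4* lies at 2.37 to 3.07 in control fat bodies and above 11 in the other 3 groups, while *Alp7* and *Alp8* stand above 8 in control whole animals only.

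The contrast between tissues shares samples with those that chose the family, and the members passed the filter through groups where they are high, so differences between tissues are given for the members with no test. In controls the mean of *Alp4* in fat bodies minus that in whole animals was −9.00 on the log2 scale (SE 0.29). In mutants the fat body mean of 12.12 ± 0.65 (SD, n = 3) stood beside a whole animal mean of 11.69 ± 0.26 (SD, n = 3), a difference of 0.43 (SE 0.29). Mutant fat bodies 2 and 4 were above all 6 whole animal samples and mutant fat body 1 was below them. Under the alternative settings this difference ran from 0.21 to 1.29.

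Since *Alp4* is known from Malpighian tubules, genes that mark this organ were set beside it. The tubule's urate oxidase gene *Uro* was at 10.61 to 11.04 in whole animals, and in fat bodies at −0.02, −0.01 and 1.70 in controls and 2.43, −0.14 and −0.26 in mutants. The leucokinin receptor gene *Lkr*, a marker of the tubule's stellate cells, was under 0 in all 6 fat body samples and at 6.64 to 7.00 in whole animals. *CapaR*, the receptor for capa peptides, and *SecCl*, a chloride channel gene of stellate cells, were at 1.43 or less in each fat body sample. These 4 of the 9 listed tubule genes had a mean under 1 in fat bodies of both genotypes. The other 5 had signal there. The potassium channel gene *Irk1* was at 6.43 to 7.91 in controls and 8.15 to 8.61 in mutants. All mutants were above all controls, as for 14.2% of all genes tested (difference 1.03, SE 0.34, limma's treat test, adjusted p = 1, and 0.0505 against no change). The transcription factor genes *tio*, *ct* and *tsh* were at −0.38 to 2.01, 5.44 to 6.14 and 7.34 to 7.60 in controls and at 1.27 to 3.56, 5.90 to 6.26 and 6.41 to 7.45 in mutants, with overlapping groups. The chloride channel gene *ClC-a*, at 7.81 to 8.62 in controls, rose to between 10.07 and 10.75 in mutant fat bodies, by 2.34 (SE 0.22, limma's treat test, adjusted p = 0.00323), and it was the only 1 of the 9 tubule genes called, a call lost when the fat body groups were fitted alone (adjusted p = 0.0743). Summed on the linear scale, the 9 genes gave log2 levels of 9.17 to 9.77 in control fat bodies, of 10.6 to 11.2 in those of mutants, and of 11.8 or more in whole animals. *ClC-a* gave the largest part of this sum in every fat body sample and *Uro* in every whole animal sample. The part of other tubule transcripts in the *Alp4* values was not tested.

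**Figure D2:**
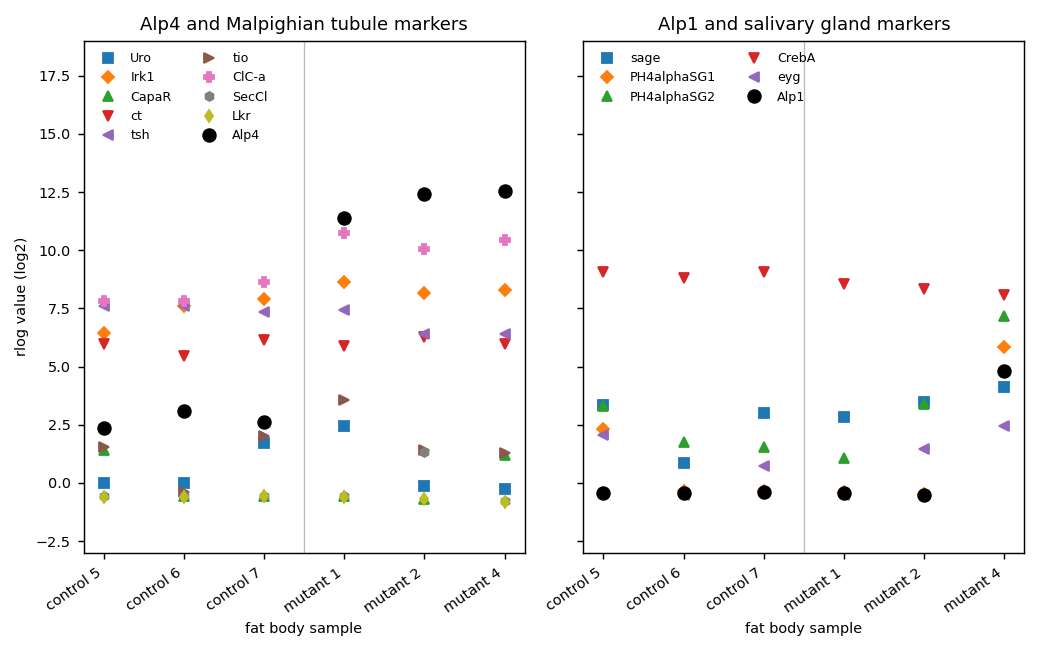
Rlog values (log2, vertical axis) in the 6 fat body samples (horizontal axis) of *Alp4* with the 9 Malpighian tubule markers (left) and of *Alp1* with the 5 salivary gland markers (right); each point is a sample. *Alp4* rises from at most 3.07 in controls to at least 11.38 in mutants. Of the tubule markers, *Uro*, *CapaR*, *SecCl* and *Lkr* stay at 2.43 or less, and *tio*, *ct* and *tsh* overlap between genotypes. *ClC-a* (7.81 to 8.62 in controls, 10.07 to 10.75 in mutants) and *Irk1* (6.43 to 7.91 and 8.15 to 8.61) are higher in every mutant. *Alp1* leaves the bottom of the scale only in mutant fat body 4.

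*Alp7* showed the reverse arrangement, with high values in control whole animals and values near the bottom of the scale in the other groups. It was at 8.98, 8.52 and 9.14 in control whole animals 1, 2 and 3 and at 1.06, −1.81 and −1.37 in the mutants. The groups lay far apart, and the mutant samples were lower by 9.59 on the log2 scale (SE 0.77, n = 3 and 3). In fat bodies *Alp7* was at −1.03, 1.32 and −1.01 in controls and at −1.04, −1.14 and −1.25 in mutants, so control 6 alone was above 0. In controls the difference of fat bodies from whole animals was −9.12 (SE 0.77). In mutants the tissues overlapped, and the difference of −0.44 (SE 0.77) is one between groups that are both near the bottom of the scale.

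*Alp8* followed *Alp7* in whole animals. It was at 9.71, 8.66 and 9.18 in controls and at 0.46, 2.23 and 3.28 in mutants, which were lower by 7.19 (SE 0.70, n = 3 and 3). Among mutants *Alp7* was highest in sample 1 and *Alp8* in sample 3, so the residual values of the pair did not follow each other from sample to sample. In fat bodies *Alp8* was at 0.68, 1.49 and −0.72 in controls and between −0.96 and −0.75 in mutants. The tissue difference in controls was −8.70 (SE 0.70). In mutants it was −2.84 (SE 0.70), and this value became −1.99 with each sample centred on its median and turned to 0.93 with quantile normalization. *Alp7* and *Alp8* passed the filter on low values through the control whole animals alone.

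*Alp2* lies between the other pair in the genome and was the weakest member. Its values were 1.52, 0.90 and 1.67 in control whole animals and −1.61, −1.96 and −1.67 in mutants, and −1.59 to −1.43 in all 6 fat body samples. The whole animal mutants were all below the controls, as for 13.5% of genes tested. Its mean of 1.37 ± 0.41 (SD, n = 3) in control whole animals was under the filter of 3.32 (the log2 of 10), so *Alp2* was the only member left out of the fit. *Alp7* and *Alp8* were the members past the threshold in whole animals, which 1.23% of all genes tested met in either direction and 1.11% met as lower. This contrast also chose the family, and nothing is read from the count.

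These 3 genes stand side by side on chromosome 2R (Ensembl 115 annotation, BDGP6.54 assembly), in the order *Alp7* (chr2R:22203694-22205593), *Alp2* (chr2R:22206005-22207987) and *Alp8* (chr2R:22208464-22210765). All are read from the minus strand, 411 bases part the first pair and 476 the second, and the whole group spans 7072 bases. Among its nearest neighbours, *Swim*, a secreted protein gene, was at 10.28 in control and 10.24 in mutant whole animals, and *ari-2*, a ubiquitin ligase gene, at 7.01 and 6.97. *CG11291*, the next gene on the right, was listed at 0 in all samples, and *CG30278*, *asRNA:CR45376* and *snoRNA:Me18S-C1968* were under −1.7 in both genotypes of whole animals. Of the 20 other genes tested within 100 kb of the centre, 0 passed limma's treat test in whole animals, with differences from −0.45 to 2.22. By limma's test against no change, 1 of these 20 had an unadjusted p under 0.05, and it stayed under 0.05 after adjustment. In fat bodies 3 of these 20 passed, the nearest being *a*, named arc in full, lower by 1.98 (limma's treat test, adjusted p = 0.0175), beside *CG30280* (5.25) and *CG5819* (4.00), and these 3 were named after their values were seen. How far reads of these adjacent paralogs can be told apart was not tested.

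**Figure D3:**
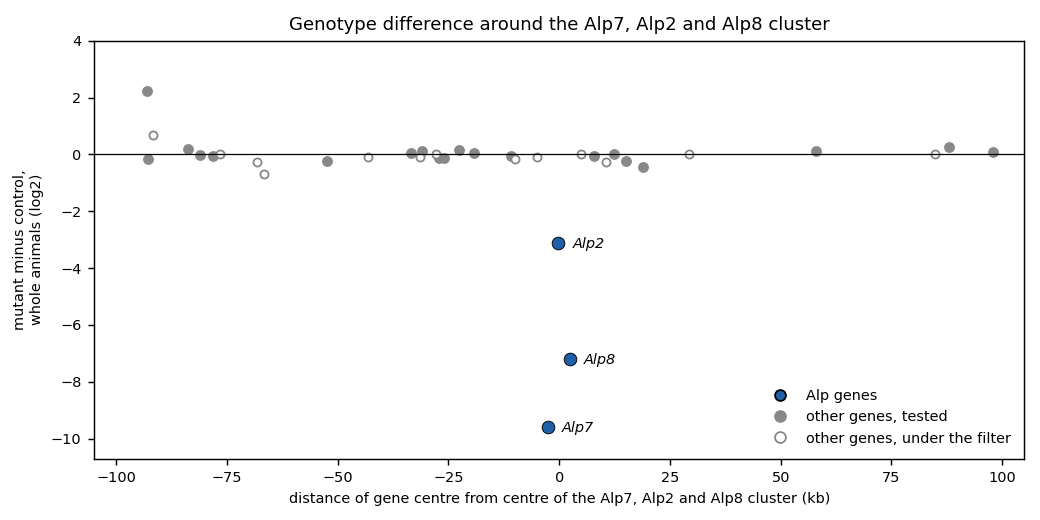
Mutant minus control difference in whole animals (log2, vertical axis) of every annotated gene within 100 kb of the centre of the *Alp7*, *Alp2* and *Alp8* group (horizontal axis, kb); each point is a gene. The 3 alkaline phosphatase genes lie at −9.59, −3.11 and −7.19, and the 20 other genes tested between −0.45 and 2.22.

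*Alp4* stands alone on chromosome 3R (chr3R:31048929-31052540, plus strand), with 5 exons and the gene of the microRNA *mir-4948* on the opposite strand inside it. *Chchd3*, a gene of the mitochondrial inner membrane organizing complex and the next protein-coding gene downstream, was at 11.05 in the control fat bodies and at 11.18 in the mutants. The casein kinase gene *dco* beyond it was at 9.58 and 9.82. On the other side the calcineurin subunit gene *CanA1* was at 0.11 and 0.80, *CG33920* at −1.20 and −1.10, and *CR46406*, like *mir-4948*, was listed at 0. Of the 10 other genes tested within 100 kb, only *CG15553* passed in fat bodies, 49.3 kb from the centre, higher by 4.54 (limma's treat test, adjusted p = 0.0149). It was named after its values were seen. In whole animals 0 of the 10 passed limma's treat test, and 1 had an unadjusted p under 0.05 against no change.

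*Alp9* and *Alp10* were the most abundant members in whole animals and differed little between genotypes. They form a divergent pair on chromosome 3L with 269 bases between them, *Alp10* (chr3L:5592741-5595272) on the minus and *Alp9* (chr3L:5595542-5597422) on the plus strand. *Alp9* was at 12.40, 11.41 and 11.68 in control and 12.13, 11.91 and 11.72 in mutant whole animals, a difference of 0.09 (SE 0.50). *Alp10* was at 12.25, 11.31 and 11.56 in controls and 12.09, 11.66 and 11.43 in mutants, a difference of 0.02 (SE 0.38). The genotypes overlapped for both genes, and within each genotype the pair put the 3 samples in the same order. In fat bodies *Alp9* was at 0.09, 1.17 and 0.99 in controls and 0.08, −0.03 and 1.90 in mutants. *Alp10* was at 2.46, 1.14 and 0.98 in control fat bodies and 0.07, −0.04 and −0.17 in mutants, a difference of −1.57 (SE 0.38). The mutants were all below the controls, as for 25.8% of all genes tested. As the mutant values were near the bottom of the scale, this difference is no measure of fold change.

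*Alp5* and *Alp6* behaved alike although they lie on different chromosomes. *Alp5* (chr3R:21005160-21006990, minus strand) lies within the span of *Calx*, a sodium/calcium exchanger gene on the other strand, and *Alp6* (chr2R:9561638-9563871, plus strand) overlaps the antisense gene *asRNA:CR45281*. The libraries were stranded, but reads that cross strands in such overlaps were not tested for. *Alp5* was at 11.00, 10.15 and 10.56 in control and 10.89, 10.50 and 10.46 in mutant whole animals (difference 0.04, SE 0.25). *Alp6* was at 10.57, 9.85 and 10.37 in controls and 10.53, 10.11 and 10.09 in mutants (difference −0.02, SE 0.24). Both were between −0.40 and −0.10 in all 6 fat body samples, the narrow band of genes with no signal there. In fat bodies the mutant values of *Alp5* and *Alp6* were all below those of the controls, by 0.13 for each gene, a sign that turned with quantile normalization (0.02 and 0.0019). Among genes with all fat body values under 0.5, 2904 of 3657 (79.4%) put the 6 samples in this same order, as did *Alp2*, so this order is that of most genes with no signal in fat bodies. Across all genes tested, 25.8% had all fat body mutants below all controls and 14.2% had them all above.

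*Alp1* (chr3L:21442227-21444819, minus strand) was lower in mutant whole animals in every sample, at 7.03, 6.61 and 6.49 against 7.17, 7.58 and 7.47 in controls, a difference of −0.70 (SE 1.11). That SE pools the spread of all groups, and the SD was 3.05 in mutant fat bodies (n = 3). In whole animals the SD was 0.21 in controls and 0.28 in mutants (n = 3 each), so the SE is no measure of the spread there. All 3 mutants were below all 3 controls, as for 13.5% of genes tested. In fat bodies *Alp1* was between −0.54 and −0.40 in all samples but mutant 4, where it was at 4.79. The fat body difference of 1.69 (SE 1.11) thus rests on that 1 sample, and without it the difference was −0.07. The same library had the highest values of *PH4alphaSG1* (5.85, against −0.48 to 2.32 in the others) and *PH4alphaSG2* (7.19, against 1.07 to 3.39), which encode prolyl hydroxylases of the salivary gland. It also had the highest values of the transcription factor genes *sage* (4.14, against 0.85 to 3.50) and *eyg* (2.46, against −0.54 to 2.08), so 4 of the 5 salivary gland markers were highest in it, and the fifth, *CrebA*, was lowest (8.07, against 8.33 to 9.05). The summed level of the 5, to which *CrebA* gave the largest part in every fat body sample, was 8.84 to 9.13 in control and 8.44 to 8.95 in mutant fat bodies. The part of these transcripts in the *Alp1* value was not tested.

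**Figure D4:**
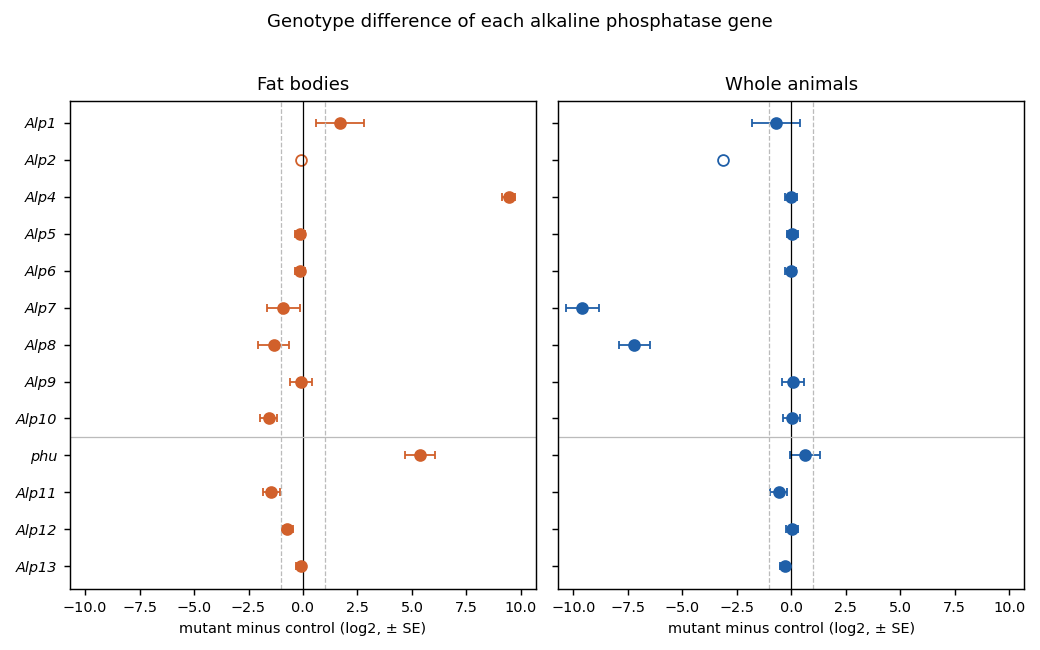
Mutant minus control difference (log2, horizontal axis) of each alkaline phosphatase gene in fat bodies (left) and whole animals (right); bars are ± SE from the fit, the open circle (*Alp2*) has none, the dashed lines mark −1 and 1, and genes under the grey line are other alkaline phosphatases. *Alp4* (9.43) and *phu* (5.38) stand apart in fat bodies, and *Alp7* (−9.59), *Alp8* (−7.19) and *Alp2* (−3.11) in whole animals.

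For *Alp1*, *Alp5*, *Alp6*, *Alp9* and *Alp10* the fat body minus whole animal difference lay between −11.08 and −7.82 in controls and between −11.77 and −5.44 in mutants, with no overlap between tissues in either genotype. These genes passed the filter only through the whole animals, where they are high, so their common direction is no result. Over all genes, 36.8% were called between tissues in controls and 35.9% in mutants, with 32.3% lower (3249 genes) and 4.57% higher (460) in fat bodies of controls, and 31.3% lower and 4.58% higher in those of mutants. With each sample centred on its median this control split became 2785 lower and 2225 higher, and with quantile normalization 1737 lower and 2357 higher, and the median of the fat body minus whole animal differences over all genes tested moved from −0.38 to 0.52 and 0.44 in controls and from −0.36 to 0.49 and 0.42 in mutants. All 8 members in the fit kept their direction under both scalings in controls. In mutants *Alp8* changed sign as given above, and the difference of *Alp1* shrank to −1.86 with quantile normalization.

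To compare levels between genes, the log2 of the exon length in kb was subtracted from each rlog value. In control whole animals the per-length log2 level was 10.92 ± 0.51 for *Alp9*, 10.90 ± 0.48 for *Alp10*, 10.42 ± 0.12 for *Alp4*, 9.83 ± 0.43 for *Alp5* and 9.51 ± 0.37 for *Alp6* (SD, n = 3). It was 8.10 ± 0.32 for *Alp7*, 8.06 ± 0.52 for *Alp8*, 6.55 ± 0.21 for *Alp1* and 0.55 ± 0.41 for *Alp2* (SD, n = 3). Neighbours in this order whose samples overlapped were *Alp9* with *Alp10*, *Alp5* with *Alp6* and *Alp7* with *Alp8*. In mutant whole animals the first 5 kept the order, from 11.01 ± 0.21 for *Alp9* to 9.49 ± 0.25 for *Alp6*, followed by *Alp1* at 5.86 ± 0.28, and *Alp8*, *Alp7* and *Alp2* came last at 0.86, −1.48 and −2.57. In mutant fat bodies *Alp4* was at 10.85 ± 0.65 (SD, n = 3) on this scale, above every other member there.

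The members also shared part of their spread between whole animal samples. Control 2 was the lowest of the 3 controls for 7 of 9 members, as it was for 34.1% of all genes tested, and mutant 1 was the highest of the mutants for 8 of 9 (all but *Alp8*), against 44.1% of all genes. The lowest mutant was sample 3 for 5 members, sample 2 for 3 and sample 1 for 1, where 33.7% of all genes were lowest in sample 3. In these mutants *Alp2* (−1.96 to −1.61) was near the bottom of the scale in all samples, and *Alp7* in samples 2 and 3. Whether their order there is that of genes with no signal was not tested. Of the 10 midgut markers all 10 were highest in mutant 1 and all 10 lowest in mutant 3, and 5 were lowest in control 2. Their summed log2 level was 15.4 to 15.6 in control and 15.5 to 16.2 in mutant whole animals and at most 7.26 in fat bodies. Their part in the spread of the members was not tested.

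The genes with a pattern most like *Alp4* over the 12 samples, by Pearson's r as a description, were *CAH2* (0.980), *Rab6* (0.978), *CG10527* (0.976), *hlk* (0.974) and *CG13659* (0.974). The carbonic anhydrase gene *CAH2* was at 4.62 to 5.09 in the control fat bodies, at 9.94 to 11.20 in the mutant ones and at 10.58 to 12.01 in whole animals. *Rab6*, a small GTPase gene of the Golgi, differed much less, with 9.61 to 9.81 in controls and 10.38 to 10.46 in mutants, since r takes no account of size. Those most like *Alp7* were *CG31560* (0.980), *CG46396* (0.978), *CG46026* (0.978), the cuticle protein gene *Cpr66Cb* (0.976) and *CG7201* (0.973). All 5 were under −1.1 in every fat body sample. They were at 3.63 to 6.88 in control whole animals and at −2.14 to 0.94 in mutants. The 12 points share 2 tissues and 2 genotypes, and ranking by Spearman's rho kept 0 of the 5 genes for *Alp4* and 1 of the 5 for *Alp7*.

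Another alkaline phosphatase gene, *phu*, which RefSeq lists with the synonym *Alp3*, rose in mutant fat bodies as well. It was at 8.88, 6.02 and 6.42 in controls and 13.51, 12.33 and 11.63 in mutants, higher by 5.38 (SE 0.68, limma's treat test, adjusted p = 0.00213). In whole animals it was at 9.98, 9.45 and 9.40 in controls and 10.74, 10.31 and 9.70 in mutants (difference 0.64, SE 0.68, adjusted p = 1 with limma's treat test), and the 2 differences themselves differed by 4.74 (limma, adjusted p = 0.0112), a test that 10.2% of all genes passed. Unlike *Alp4*, *phu* was well above the bottom of the scale in control fat bodies. The fat body call was lost when these 2 groups were fitted alone (limma's treat test, adjusted p = 0.0648). *Alp11*, *Alp12* and *Alp13* did not pass in either tissue, with fat body differences of −1.46, −0.73 and −0.11 and whole animal differences of −0.58, 0.04 and −0.30. *Alp12* overlaps *CG13085* on the same strand, so its reads may have been divided between them.

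Other genes that free or move phosphate were taken as lists with earlier results of these data known. Both phosphate transporter genes called of 3 were higher in mutant fat bodies, and the third, *NaPi-T*, did not pass (difference 1.04, SE 0.36). Over all genes tested, 3.18% were called in fat bodies and 1.76% were called higher. As the lists were chosen with results known, nothing is read from the counts of any of them. *NaPi-III*, a sodium-phosphate cotransporter gene, was at 8.53, 10.19 and 10.45 in controls and 13.30, 13.37 and 13.69 in mutants (difference 3.73, SE 0.39, limma's treat test, adjusted p = 0.00112). *Picot*, a gene for a transporter of the phosphate cotransporter family, was at 1.69, 3.14 and 3.51 in controls and 6.37, 6.98 and 7.76 in mutants (difference 4.25, SE 0.44, limma's treat test, adjusted p = 8.27e-04). The median difference of the list was 3.73, against −0.07 over all genes tested. For *NaPi-III* and *Picot* all fat body mutants were above all controls, as for 14.2% of all genes tested. Of 8 acid and inositol phosphate phosphatase genes, 2 were higher in mutant fat bodies, the acid phosphatase-like genes *CG9451* (4.26, SE 0.47, adjusted p = 0.0013) and *CG9452* (2.88, SE 0.27, adjusted p = 0.00111, both by limma's treat test), and 6 were not called (list median −0.18). The calls of *Picot* and *CG9452* were lost when the fat body groups were fitted alone (adjusted p = 0.0648 and 0.105), and that of *CG9452* also with quantile normalization (0.219).

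Of 5 tested genes for the breakdown of extracellular nucleotides, whose phosphate these enzymes can also free, only *Adgf-D*, an adenosine deaminase gene, passed limma's treat test in fat bodies. It was at 7.77, 7.97 and 9.27 in controls and 4.56, 4.61 and 6.02 in mutants, lower by 3.28 (SE 0.47, limma's treat test, adjusted p = 0.0123), a call lost without mutant 2 or 4 (adjusted p = 0.0521 and 0.0514), with the fat body groups fitted alone (0.139) and with quantile normalization (0.262). *Adgf-A*, another gene of this deaminase family, was higher in all 3 mutants, as for 14.2% of all genes tested (difference 0.97, SE 0.17). It did not pass limma's treat test (adjusted p = 1) but did pass limma's test against no change (adjusted p = 0.00169). This gene was named after its values were seen. Of 24 tested genes that build or attach the GPI anchor, 0 passed limma's treat test in either tissue, and the list median was −0.09 in fat bodies and 0.03 in the whole animals. By limma's test against no change, 7 of the 24 had an unadjusted p under 0.05 in fat bodies, 6 after adjustment, and 2 had one in whole animals, 0 after adjustment. Over the 44 tested genes of these lists and the other alkaline phosphatases, 0 passed limma's treat test in whole animals, and 5 had an unadjusted p under 0.05 against no change.

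**Figure D5:**
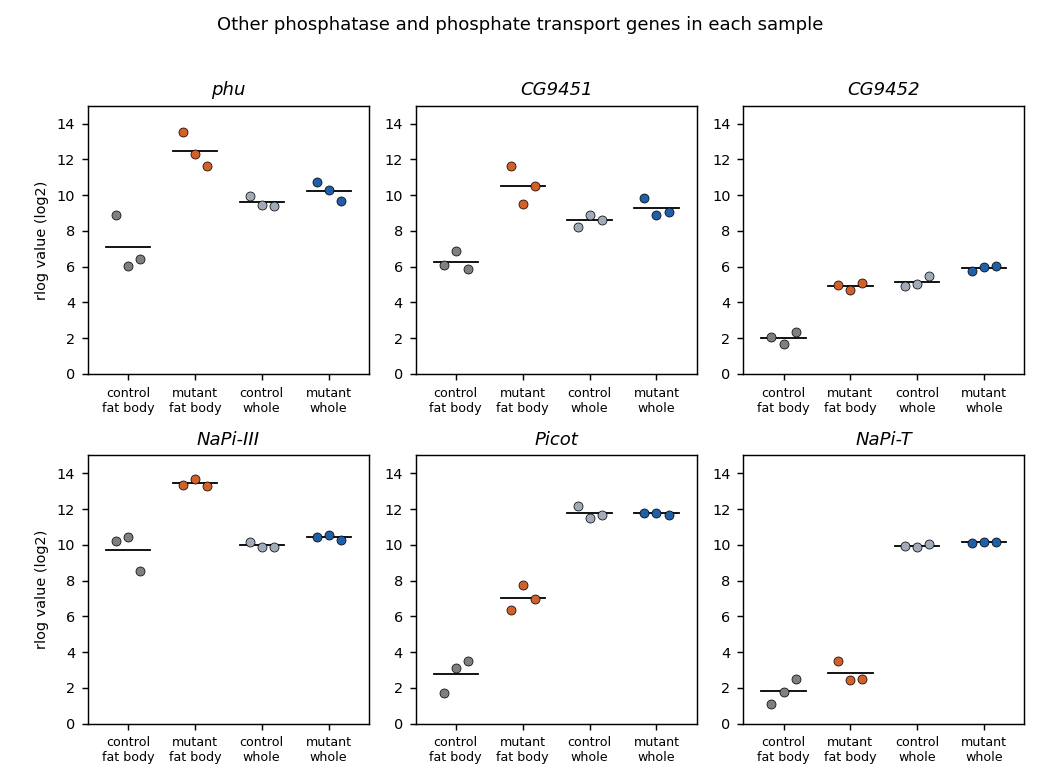
Rlog value (log2, vertical axis) of *phu*, 2 acid phosphatase-like genes and 3 phosphate transporter genes in the 12 samples, by group; points are samples and bars are means of 3. Mutant fat bodies lie above control fat bodies in every sample for all but *NaPi-T*, a separation seen in 14.2% of all genes tested. Whole animals differ by at most 0.80 between genotypes.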

How the data were processed

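The 12 libraries were poly-A selected and stranded. Per the methods and the labels, the authors estimated transcript abundance with Salmon 1.10.2, summed it to genes, and deposited rlog values made with DESeq2 1.42.0, which are log2 of counts divided by size factors and shrunk toward each gene's mean. Library depth is unknown from them, and shrinkage narrows differences of weakly covered genes. These log2 values are not counts, so they were fitted with limma 3.58.1 in R 4.3.3, in one model of the 12 samples that gave each group its own mean and let the variance follow expression. Genes with a mean of at least 3.32 in 1 group were tested (10069), and p-values were Benjamini-Hochberg adjusted over them. A call is limma's treat test against a log2 change of 1 with adjusted p under 0.05, and the interaction of genotype and tissue was tested against no difference. With 3 samples against 3 an exact two-sided permutation test cannot give p under 0.1. The model was tested on simulated data.

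The members and lists were chosen with earlier results of these data known. Genes named are the members, other alkaline phosphatase genes, list genes past the threshold in a genotype comparison, 3 neighbours on each side of each locus, the 5 most alike genes and *ERR*. Tissue markers came from fixed lists, and *NaPi-T*, *Adgf-A*, *PIG-G*, *PIG-M* and the called genes farther along each locus were added after their values were seen. Tests of the members between tissues were planned and are not given, since those samples also chose the family or carried its members past the filter. *PXo* was not analysed here. Positions come from Ensembl 115 (BDGP6.54), which placed 24092 of 24134 genes, and were not taken from the authors' build. Alternatives were other filters and scalings, array weights, no variance trend, a test against no change, the compared groups alone, a replicate block, and each sample left out. Figures were drawn with matplotlib 3.10.9.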

Additional observations from a re-analysis of the deposited data

Results flagged for a closer look

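No member was marked for a closer look, and with groups of 3 samples no test for outlying samples was made. In 10 genes of the lists and tissue markers outside the family the genotype effects of the 2 tissues differed by limma's interaction test, which called 10.2% of all genes tested. They were 1 of 4 other alkaline phosphatases, 2 of 8 acid and inositol phosphate phosphatases and 2 of 3 phosphate transport genes. Of the nucleotide genes 1 higher and 1 lower of 5 were called, with 2 of 24 GPI anchor genes and 1 of 9 tubule markers. No gene of the other marker lists was called, nor was *ERR*, and nothing is read from the count. The difference between the fat body and the whole animal effect was 4.74 for *phu* (adjusted p = 0.0112), 3.58 for *CG9451* (adjusted p = 0.00714), 2.08 for *CG9452* (adjusted p = 0.00611), 3.30 for *NaPi-III* (adjusted p = 0.00397), 4.29 for *Picot* (adjusted p = 0.00191) and −2.78 for *Adgf-D* (adjusted p = 0.0239). It was 1.105 for *Adgf-A* (adjusted p = 0.0132), −0.62 for *PIG-G* (adjusted p = 0.00653) and −0.46 for *PIG-M* (adjusted p = 0.0368), genes of GPI anchor synthesis in the last 2 cases, and 1.98 for the tubule marker *ClC-a* (adjusted p = 0.00309). Over the alternatives the adjusted p by limma ran up to 0.0346 for *phu*, 0.0232 for *CG9451*, 0.0141 for *NaPi-III*, 0.0077 for *Picot*, 0.0405 for *Adgf-A*, 0.0197 for *PIG-G* and 0.0117 for *ClC-a*. It ran to 0.529 for *CG9452*, lost only with quantile normalization. The call of *Adgf-D* was lost with quantile normalization (0.216) and without mutant fat body 2 (0.0521) or 4 (0.0521), control whole animal 1 (0.0615) or 3 (0.056) or mutant whole animal 1 (0.0575). That of *PIG-M* was lost with no filter on low values (0.0501), with median centring (0.0627), with no variance trend (0.0838) and without any 1 sample other than control fat body 7 and mutant fat body 2 (0.0661 to 0.086).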

How the results depend on the processing

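The numbers of genes called were 320 in fat bodies and 124 in whole animals between genotypes, 3709 and 3611 between tissues in controls and mutants, and 1032 for the interaction. Testing against no change gave 2242, 331, 7217 and 7086, as its construction admits smaller changes. Quantile normalization gave 205 in fat bodies and 189 in whole animals, array weights 197 in whole animals, and fitting the fat body groups alone 166, for which the cause was not tested. Leaving out 1 sample at a time moved the counts from 289 to 328, 88 to 149, 3524 to 3888, 3393 to 3731 and 686 to 1334 in that order, the lowest interaction count without control whole animal 1. Among the tissue differences that turned with quantile normalization were those of *Alp11* (0.78 in controls, 0.035 in mutants), *CG9452* (1.75 and 2.23) and *Alp8* (0.93 in mutants). *Alp4* in fat bodies moved to 7.51 and *Alp1* in whole animals to −1.30 with the same setting. The genotype differences of *Alp7* and *Alp8* in whole animals ran from −10.47 to −9.04 and from −8.36 to −6.43 over all settings. Same-numbered whole animals of the 2 genotypes had deviations that correlated at −0.13 to −0.02 across genes. Those of same-numbered mutant fat bodies and whole animals correlated at −0.09 and −0.08. No pairing by number was seen in these values, but weak correlations cannot show that samples were not collected in pairs. A replicate block gave 120 genes in whole animals and 3575 between tissues in mutants. Protein identity and promoter motifs, planned as descriptions, were not run because no sequences were used here.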
